A study of Mus musculus with 6 samples.

Results

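The genes described here are those of 5 liver enzyme families that oxidise, reduce or hydrolyse small molecules: the alcohol dehydrogenases (Adh), the aldehyde dehydrogenases (Aldh), the aldo-keto reductases (Akr), the carboxylesterases (Ces) and the flavin-containing monooxygenases (Fmo). They were chosen by symbol, as genes whose name is one of these family names followed by a digit, with the bile acid synthesis gene Akr1d1 left out. The genes reported are 66 of the 23284 counted, and the 48 with a mean of at least 1 CPM (counts scaled to a common library size) over the 6 libraries are reported with their values. All 48 were also kept by the filter on low counts and entered the test. They are 5 of 6 Adh genes, 15 of 20 Aldh genes, 11 of 16 Akr genes, 13 of 18 Ces genes and 4 of 6 Fmo genes.

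RNA-seq was made from livers of C57BL/6 mice aged 8 weeks, fasted overnight and then given vehicle (n = 3) or FGF19 at 1 mg/kg (n = 3), with food withheld for the 6 h until the liver was taken. The methods describe male mice, and the labels name no allele or further treatment in either group. FGF19 is the human form of a hormone that the ileum releases after a meal. The study profiled liver RNA to learn what part this hormone has in repressing lipogenic genes. The labels number the libraries 1, 2 and 3 within each group, and the methods describe 3 mice per group.

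Alcohol dehydrogenases turn alcohols such as ethanol and retinol into aldehydes, and aldehyde dehydrogenases turn aldehydes into acids, which clears acetaldehyde and makes retinoic acid. Aldo-keto reductases run the opposite reaction on aldehydes, ketones and steroids, carboxylesterases cut esters in drugs and in stored lipid, and flavin-containing monooxygenases add oxygen to nitrogen or sulfur atoms of drugs and dietary amines. Most of these enzymes are made in hepatocytes, and many sit in tandem clusters of similar genes.

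Transcripts of these families were lower after FGF19 in many members, and most of the differences were small. Of the 48 members, 12 fell and 1 rose at an adjusted p under 0.05 (edgeR quasi-likelihood test, Benjamini-Hochberg adjustment over the 12559 genes tested). Thus 25% of the members fell, where 2.84% of all genes tested fell, and the 1 member that rose compares with 4.56% of all genes tested (7.41% in either direction). At an unadjusted p under 0.01, 16 members were lower and 1 higher, against 4.98% and 6.2% of all genes tested. The count that fell was 19 with DESeq2 and depended on single libraries, since it was 5 without Vehicle replicate 1, Vehicle replicate 3, FGF19 replicate 1 or FGF19 replicate 2 and 22 without FGF19 replicate 3. The share of all genes tested that fell moved the same way, with 4.13% for DESeq2, 0.719% to 1.32% in the fits that gave 5 members and 7.3% without FGF19 replicate 3. Fmo2, Fmo1, Ces1d and Akr1c19 were called in every one of these fits. Since many of these genes are abundant, the 4063 tested genes with a mean of at least 30 CPM were also counted, and 5.61% of those fell. Some members lie below that level, among them Fmo2 at 26.9 and Aldh3b1 at 3.03 CPM, so the 48 and the 4063 genes are not matched in level. The log2 fold change (FGF19 over Vehicle) was below 0 in 41 of the 48, where 50.1% of all genes tested and 2462 of the 4063 genes were below 0. Its median was -0.28 over the members, -0.06 over the 4063 genes and -0.00076 over all genes tested. In 25 members every FGF19 library was below every Vehicle library and in 2 every FGF19 library was above, against 13.8% and 14.5% of all genes tested, and in the other 21 the groups overlapped. Of the 4063 genes, 935 were apart between groups with FGF19 below and 559 with FGF19 above.

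The fall was largest in single members of 3 tandem clusters: Fmo2 on chromosome 1, Akr1c19 on chromosome 13 and Ces1d on chromosome 8. Among the 13 called members, the differences ran from a log2 fold change of -1.83 for Fmo2 to 0.93 for Aldh3b1. By family, 2 of 4 Fmo members, 5 of 11 Akr members, 3 of 13 Ces members and 2 of 15 Aldh members fell, and none of 5 Adh members passed. These counts rest on few calls and, except for Fmo, moved when 1 library was left out. The Fmo count stayed at 2 without any 1 of the 6 libraries. The Akr count dropped to 1 when Vehicle replicate 1 or 3 was omitted and to 2 when Vehicle replicate 2 or FGF19 replicate 1 or 2 was, and it was 7 when FGF19 replicate 3 was omitted. The Ces count was 1 when Vehicle replicate 3 or FGF19 replicate 1 or 2 was omitted, and 5 when FGF19 replicate 3 was. The Aldh count was 0 when Vehicle replicate 1 or FGF19 replicate 1 or 2 was omitted, 1 when Vehicle replicate 3 was, and 6 when FGF19 replicate 3 was. Of the Adh members, 3 had an unadjusted p under 0.05, a threshold at which the share of all genes tested was not counted. DESeq2 called none of the Adh members, and edgeR called 2 lower without FGF19 replicate 3. Whether the families differ in the share that fell was not tested.

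**Figure D1:**
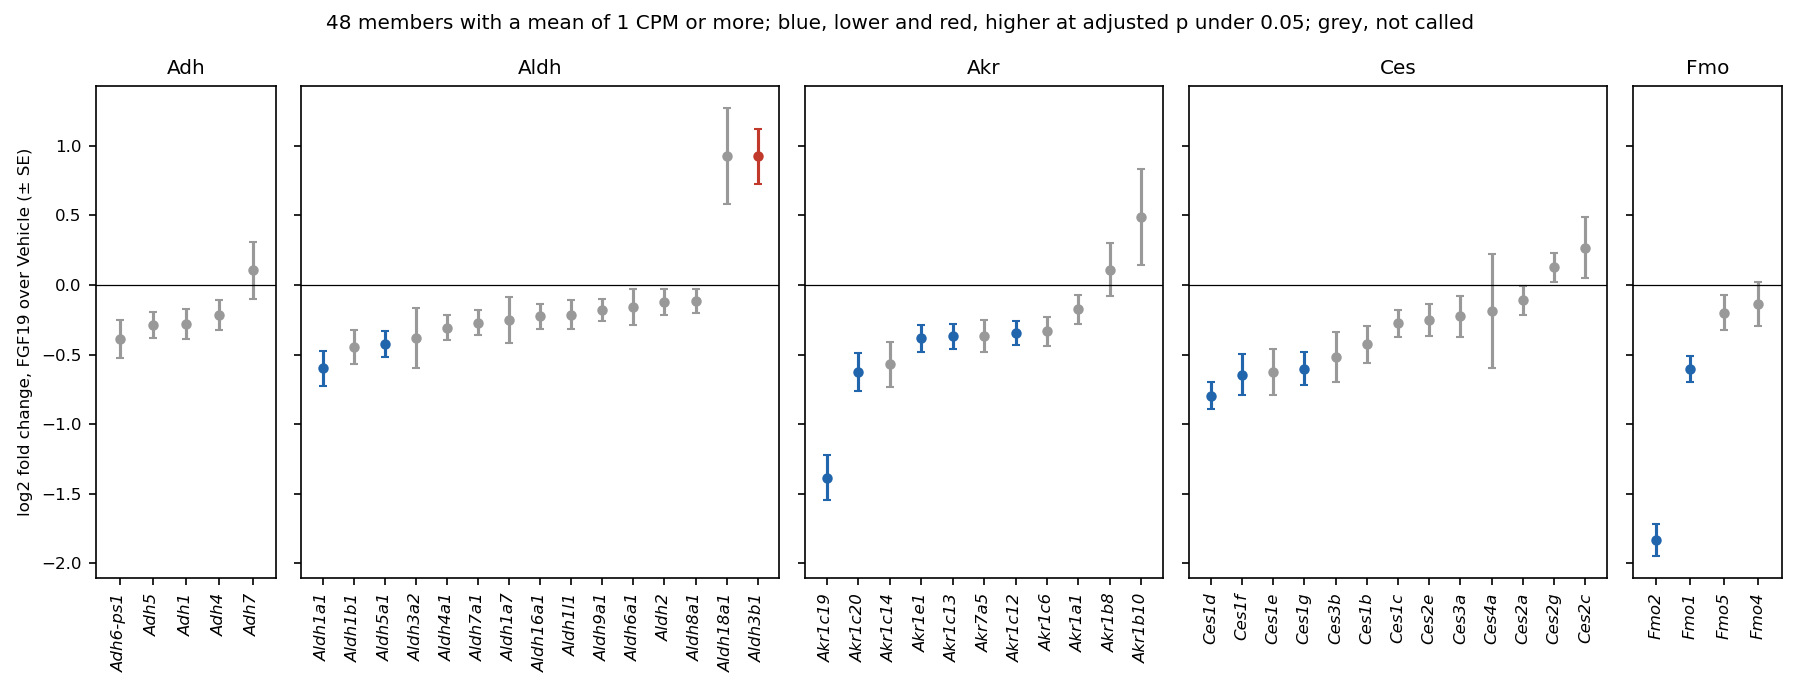
Log2 fold change (FGF19 over Vehicle, y axis, with its standard error as bars) of the 48 members with a mean of at least 1 CPM, in 5 panels by family and sorted within each. Blue points are the 12 members that fell and the red point is Aldh3b1, the 1 member that rose, while the 35 grey points did not pass an adjusted p of 0.05, and 41 of the 48 points lie below 0.

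Summed over the 48 members, the level was 19521, 17485 and 17294 CPM in the Vehicle libraries and 14348, 14473 and 15018 CPM in the FGF19 libraries. The groups did not overlap, and the FGF19 mean of 14613 ± 356 CPM (SD, n = 3) differed by -19.3% from the Vehicle mean of 18100 ± 1234 CPM. The difference between the means was -16.3% for Aldh, -17.5% for Adh, -21.2% for Fmo, -21.8% for Ces and -22.9% for Akr. Within each of the 5 families the Vehicle library with the smallest sum was above the FGF19 library with the largest sum. Vehicle replicate 1 had the highest sum in every family, and it was the highest library for 11 of the 12 members that fell.

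Total counts per library were between 18994654 and 22920056, so that a gene with no read could still have been present at 0.131 to 0.158 CPM (3 counts), and no pair of libraries agreed within sampling noise. Markers were also counted as a check of the tissue. The 6 hepatocyte markers summed to 95352 to 99598 CPM in Vehicle and 87913 to 99208 CPM in FGF19 libraries, and edgeR called none, with 2 at an unadjusted p under 0.05 and 0 calls by DESeq2. The 7 neutrophil and monocyte markers in the files summed to 3.50 to 4.12 and 7.29 to 11.1 CPM, with S100a9 the 1 that rose among 3 tested, and all 3, with Csf3r (log2 fold change 0.82) and Ccr2 (1.03), were higher at an unadjusted p under 0.01 and apart between groups. Kupffer cell markers summed to 174 to 208 and 174 to 214 CPM, with Marco and Cd68 higher among 7 tested, while 3 of the 7 were below 0 in log2 fold change and Vsig4 (-0.54) was lower at an unadjusted p under 0.01 and apart between groups. Endothelial markers summed to 222 to 240 and 221 to 243 CPM, with Cdh5 higher among 6, while 3 of the 6 were below 0 and Clec4g (-0.38) was lower at an unadjusted p under 0.01 and apart between groups. Among 6 stellate cell, 5 cholangiocyte and 4 blood cell markers tested, edgeR called none, with 2, 0 and 3 at an unadjusted p under 0.05 and the blood cell gene Alas2 as the 1 call by DESeq2. The 4 adipocyte markers summed to 0.0993 to 1.86 CPM in Vehicle and 0.138 to 1.12 CPM in FGF19 libraries. Cfd was the 1 of them tested and was not called, and Lep had 0 counts in all 6 libraries. The globin genes Hba-a1 and Hbb-b1 were also listed at 0, but their exons overlap those of Hba-a2 and Hbb-b2 in the annotation, and reads over exons of several genes were not counted, so that these zeros set no limit on blood RNA. The part of these markers in the results below was not tested, and in bulk RNA fewer hepatocytes and less RNA per hepatocyte cannot be told apart.

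Flavin-containing monooxygenases include the member with the largest fall. The genes Fmo4, Fmo1, Fmo2 and Fmo6 lie in one cluster on the minus strand of chromosome 1, and Fmo5 lies apart on chromosome 3. Fmo2 (mm9 chr1:164805178-164828843), known mainly as the lung form, stood at 45.1, 44.1 and 36.5 CPM in the Vehicle libraries and at 11, 12.4 and 12 CPM in the FGF19 libraries. The groups were far apart, with the highest FGF19 library well below the lowest Vehicle library. The level was 71.9% lower after FGF19, with a log2 fold change of -1.83 ± 0.11 (SE) and an adjusted p of 3.4e-05. This was the smallest adjusted p of any member, and Fmo2 passed in each of the 13 other fits tried.

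Fmo1 (chr1:164759692-164796679), a main drug-oxidising form of the mouse liver, was measured at 309, 257 and 270 CPM in Vehicle and 185, 185 and 181 CPM in FGF19 libraries. The 3 FGF19 libraries lay close together and below all Vehicle libraries. It fell by 0.60 ± 0.09 on the log2 scale, with an adjusted p of 0.0050.

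The other members of the family did not pass. Fmo4, the neighbour of Fmo1, gave 8.15, 6.73 and 7.79 CPM in Vehicle and 5.58, 7.63 and 7.42 CPM in FGF19 libraries, which overlap (log2 fold change -0.14 ± 0.16, adjusted p = 0.67). Fmo5, which inserts oxygen beside carbonyl groups and had the highest level per length of the family, was at 131 RPKM (the CPM divided by the exon length in kilobases) in Vehicle and 114 RPKM in FGF19 libraries, with overlapping groups and a log2 fold change of -0.20 ± 0.13 (adjusted p = 0.39). The ratio of Fmo2 to Fmo4 counts within a library was 5.54, 6.56 and 4.68 in Vehicle and 1.97, 1.62 and 1.61 in FGF19 libraries. That of Fmo2 to Fmo1 was 0.146, 0.171 and 0.135 in Vehicle and 0.0593, 0.0669 and 0.0662 in FGF19 libraries. For both ratios the groups did not overlap, and the exact two-sided permutation p was 0.1, which is the smallest that 3 against 3 libraries can give and 0.12 after Benjamini-Hochberg adjustment over the 6 ratios computed here. All 6 ratios were chosen after the values were seen, so their p-values add no independent support to the fold changes. Fmo6 had 1 count in all and Fmo9 none.

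The promoters of Fmo2 and Fmo4 are shown because these genes of the cluster differed widely in the size of their change. Each run covers 250 bases before to 50 bases after the transcript start in RefSeq (GRCm38.p6, minus strand), at chr1:162898444-162898743 for Fmo2 and chr1:162812500-162812799 for Fmo4. RefSeq gives Fmo2 a further start, 265 bases upstream, whose promoter at chr1:162898709-162899008 is shown as well. The start of the run named Fmo2 lies 219 bases inside the gene of the count files, and that of the run named Fmo2 upstream lies 46 bases before its first base. Capitals mark matches on either strand to the nuclear receptor element AGGTCA or to the STAT element TTCNNNGAA.
Fmo2: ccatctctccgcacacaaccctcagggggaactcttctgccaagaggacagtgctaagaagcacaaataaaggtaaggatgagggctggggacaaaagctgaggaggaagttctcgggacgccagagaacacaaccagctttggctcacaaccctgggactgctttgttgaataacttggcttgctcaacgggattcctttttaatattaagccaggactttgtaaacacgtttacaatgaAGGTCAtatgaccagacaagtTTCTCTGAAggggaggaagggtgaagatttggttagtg
Fmo2 upstream: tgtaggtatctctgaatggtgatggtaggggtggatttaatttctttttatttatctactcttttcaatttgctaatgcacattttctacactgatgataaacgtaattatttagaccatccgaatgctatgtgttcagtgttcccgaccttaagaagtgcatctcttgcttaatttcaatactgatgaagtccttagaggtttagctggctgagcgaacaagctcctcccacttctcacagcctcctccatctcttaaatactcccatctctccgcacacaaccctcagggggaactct
Fmo4: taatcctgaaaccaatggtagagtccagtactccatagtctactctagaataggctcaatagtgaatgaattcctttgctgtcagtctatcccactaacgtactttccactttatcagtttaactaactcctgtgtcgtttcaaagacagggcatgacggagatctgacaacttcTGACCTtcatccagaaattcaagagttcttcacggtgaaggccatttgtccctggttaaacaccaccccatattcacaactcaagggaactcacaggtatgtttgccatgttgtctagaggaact
The upstream run held no match to the motifs searched. The other Fmo2 run held AGGTCA from position -9 and a match to TTCNNNGAA from position 13, and the Fmo4 run held AGGTCA on the opposite strand from position -75, all counted from the start site. AGGTCA is found in 16.3% and TTCNNNGAA in 8.3% of the 32851 mouse promoters of this length in the same table. Such a match describes the letters and was not tested as a binding site.

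**Figure D2:**
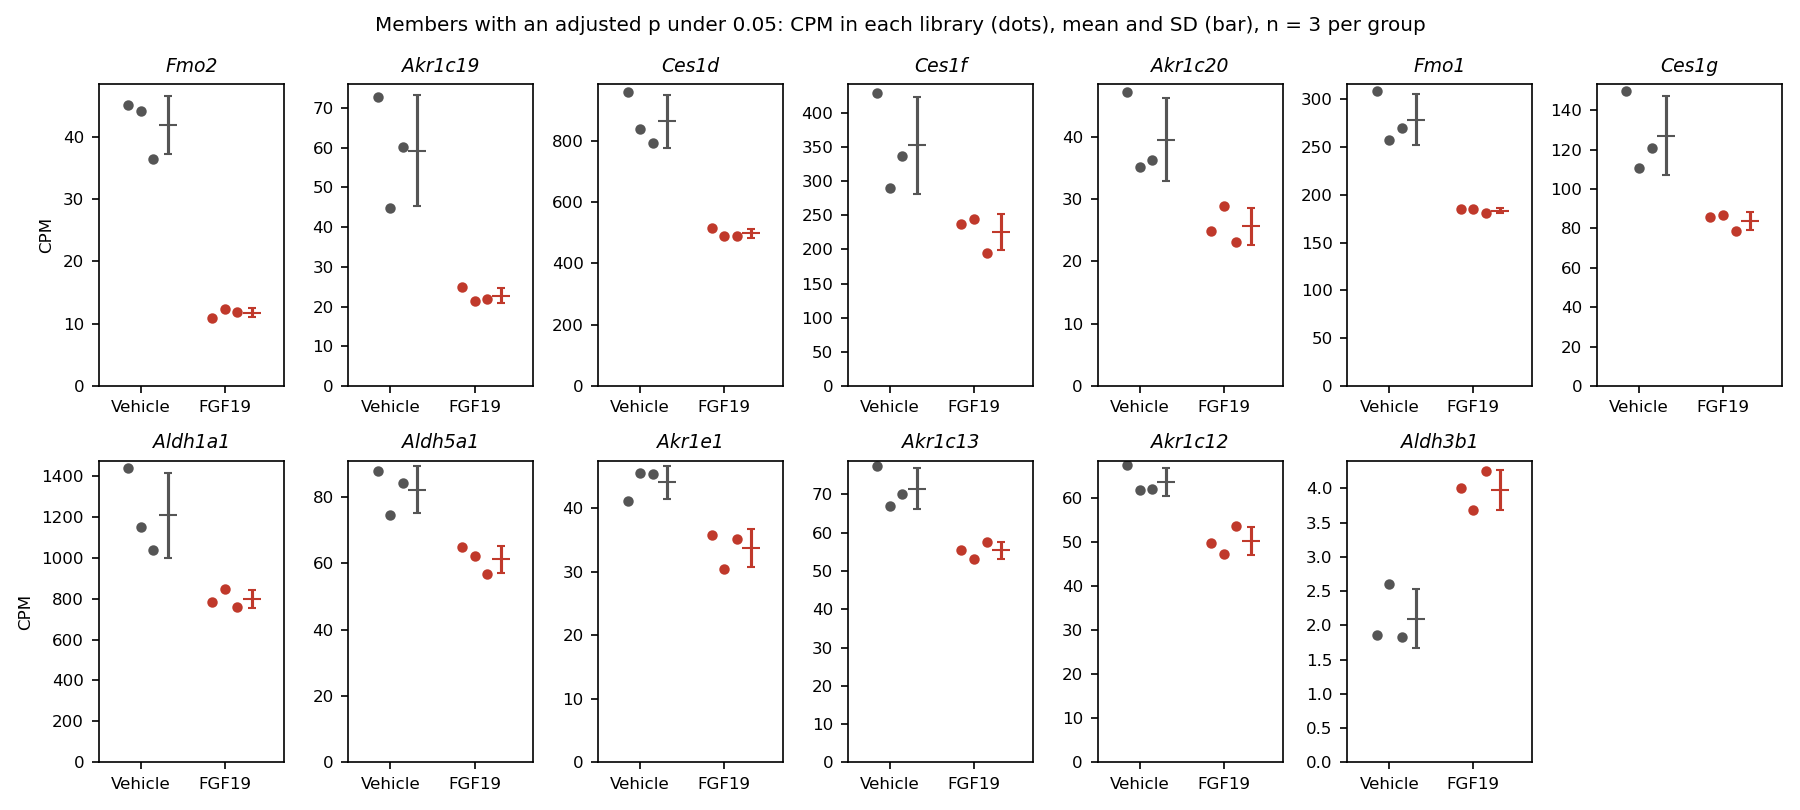
CPM (y axis, starting at 0) of the 13 called members in each library, with Vehicle in grey and FGF19 in red, and the mean and SD of n = 3 beside the dots. In 12 panels all red dots lie below all grey dots, and in the panel of Aldh3b1 they lie above, at 3.68 to 4.26 against 1.84 to 2.6 CPM.

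Aldo-keto reductases fell mainly within the Akr1c cluster of chromosome 13, whose members reduce or oxidise steroids, prostaglandins and other ketones. The cluster holds 8 Akr1c genes and the neighbouring Akr1e1, and 7 of these 9 had a mean of at least 1 CPM. Of the 7, 5 fell, where 2.84% of all genes tested and 5.61% of those with a mean of at least 30 CPM fell. In all 7 every FGF19 library was below every Vehicle library. This held for 13.8% of all genes tested and for 935 of the 4063 genes with a mean of at least 30 CPM. Without Vehicle replicate 1 or Vehicle replicate 3, Akr1c19 was the 1 member of the cluster still called. Their summed level was 1036, 873 and 939 CPM in Vehicle and 729, 709 and 634 CPM in FGF19 libraries, a difference of -27.3% between the means. The 4 other members of the family, which lie on other chromosomes, did not pass, although 1 had an unadjusted p under 0.05 and was called by DESeq2 and by edgeR when FGF19 replicate 3 was omitted, Akr7a5.

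Akr1c19 (chr13:4232986-4247605) stood apart within the cluster. It was measured at 72.8, 44.8 and 60.2 CPM in Vehicle and at 24.8, 21.5 and 21.8 CPM in FGF19 libraries. The FGF19 libraries were all near the same level, below the spread of the Vehicle libraries. It fell by 1.38 ± 0.16 on the log2 scale, with an adjusted p of 0.0014, and passed in each of the 13 other fits. Akr1c20 (chr13:4506405-4522579) was at 47.2, 35.1 and 36.3 CPM in Vehicle and 24.8, 28.9 and 23.1 CPM in FGF19 libraries, without overlap. It fell by 0.63 ± 0.14 on the log2 scale (adjusted p = 0.0252), and its adjusted p was 0.091 at most when a library was left out, with the call lost for 3 of the 6.

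The 3 other called members of the cluster changed by a smaller amount. Akr1c13 (chr13:4190433-4204849) was at 77.5, 66.9 and 70.0 CPM in Vehicle and 55.4, 53.2 and 57.6 CPM in FGF19 libraries, and Akr1c12 (chr13:4267418-4278645) was at 67.3, 61.7 and 61.9 against 49.8, 47.2 and 53.6 CPM. Akr1e1 (chr13:4591736-4608410), which reduces 1,5-anhydrofructose, was at 41.1, 45.6 and 45.5 against 35.8, 30.4 and 35.1 CPM. None of the 3 overlapped between groups. They fell by 0.37 ± 0.09, 0.34 ± 0.09 and 0.38 ± 0.10 on the log2 scale, with adjusted p-values of 0.0371, 0.0459 and 0.0459. All 3 calls were lost when any library other than FGF19 replicate 3 was left out, with adjusted p-values up to 0.16, 0.20 and 0.19.

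Akr1c12 and Akr1c13 are close copies, and 6.27% of the 100-base windows of each occur in the other, so reads there could not be assigned and the values of the pair are uncertain to that extent. The ratio of Akr1c12 to Akr1c13 counts was 0.868, 0.922 and 0.884 in Vehicle and 0.899, 0.888 and 0.930 in FGF19 libraries, and the groups overlapped (exact two-sided permutation p = 0.5). The ratio of Akr1c19 to Akr1c13 was 0.940, 0.669 and 0.860 in Vehicle and 0.449, 0.404 and 0.378 in FGF19 libraries, without overlap (exact two-sided permutation p = 0.1, the smallest possible, and 0.12 after adjustment over the 6 ratios). Both pairs were chosen after the values were seen. No 100-base window of Akr1c19 occurred elsewhere in the genome.

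The 3 promoters are shown since the 2 close copies changed by about the same amount and Akr1c19, which lies between them, by more. They are from RefSeq (GRCm38.p6) at chr13:4279350-4279649 on the minus strand for Akr1c12, and on the plus strand at chr13:4190937-4191236 for Akr1c13 and chr13:4233490-4233789 for Akr1c19. Capitals mark the match to TTCNNNGAA.
Akr1c12: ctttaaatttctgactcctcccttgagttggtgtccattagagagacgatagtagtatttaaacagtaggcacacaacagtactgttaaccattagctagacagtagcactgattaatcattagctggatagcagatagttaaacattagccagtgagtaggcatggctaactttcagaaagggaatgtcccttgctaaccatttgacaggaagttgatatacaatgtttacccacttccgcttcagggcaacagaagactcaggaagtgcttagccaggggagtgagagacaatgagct
Akr1c13: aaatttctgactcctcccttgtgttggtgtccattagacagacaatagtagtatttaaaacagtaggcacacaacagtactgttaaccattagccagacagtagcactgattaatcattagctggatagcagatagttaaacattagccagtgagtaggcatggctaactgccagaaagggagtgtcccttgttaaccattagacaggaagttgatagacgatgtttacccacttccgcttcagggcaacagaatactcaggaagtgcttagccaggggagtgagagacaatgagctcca
Akr1c19: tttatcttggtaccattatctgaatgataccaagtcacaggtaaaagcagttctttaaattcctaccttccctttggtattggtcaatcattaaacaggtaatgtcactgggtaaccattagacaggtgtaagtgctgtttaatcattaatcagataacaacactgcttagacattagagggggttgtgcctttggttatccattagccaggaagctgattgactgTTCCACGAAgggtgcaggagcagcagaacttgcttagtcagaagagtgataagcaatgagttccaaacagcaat
The runs of Akr1c12 and Akr1c13 matched at 284 of 304 aligned positions (93.4%), and those of Akr1c12 and Akr1c19 at 182 of 321 (56.7%). The single match to TTCNNNGAA was in the Akr1c19 run, from position -24. No match to AGGTCA, to TATAAA or to GTTAAT, an element of hepatocyte nuclear factor 1, was found in the 3 runs on either strand.

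Among the members of the family that did not pass in edgeR's quasi-likelihood test, Akr1c14, a 3-alpha-hydroxysteroid dehydrogenase of the cluster, had the largest change, and it was called in 5 of the 13 other fits, DESeq2 among them. It was at 248, 227 and 270 CPM in Vehicle and 206, 169 and 126 CPM in FGF19 libraries, with a log2 fold change of -0.57 ± 0.16 and an adjusted p of 0.064. The groups did not overlap, and FGF19 replicate 3 was the lowest. Akr1c6, a 17-beta-hydroxysteroid dehydrogenase with the highest level per length of the family, was at 311 RPKM in Vehicle and 247 RPKM in FGF19 libraries (log2 fold change -0.33 ± 0.11, adjusted p = 0.092). Outside the cluster, the log2 fold change was -0.37 for Akr7a5, which reduces aflatoxin dialdehyde, and -0.18 for Akr1a1, the general aldehyde reductase. It was 0.49 for Akr1b10 and 0.11 for Akr1b8, which was originally described as a gene regulated by a fibroblast growth factor in fibroblasts, and both overlapped between groups at levels under 4 CPM.

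**Figure D3:**
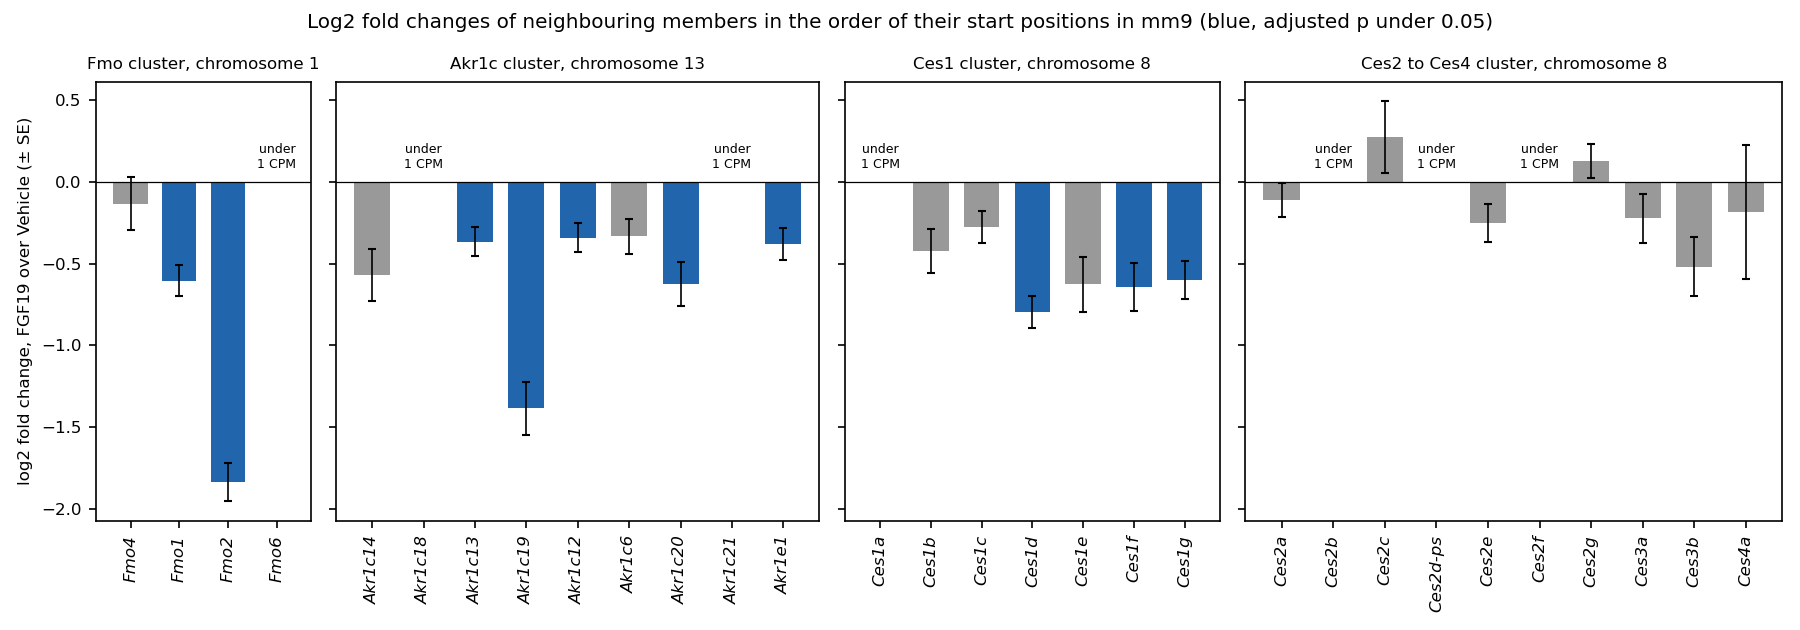
Log2 fold change (FGF19 over Vehicle, y axis, with its standard error) of the members of 4 gene clusters in chromosomal order, with called members in blue and others in grey. Fmo4 at -0.14 and Fmo2 at -1.83 lie in the same cluster, all 7 measured genes of the Akr1c cluster and all 6 of the Ces1 cluster are below 0, and no gene of the cluster from Ces2 to Ces4 is in blue, the colour of calls in edgeR's test on the 6 libraries.

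Carboxylesterases include the member with the highest level per length. Separate blocks of chromosome 8 carry the Ces1 genes and the Ces2, Ces3 and Ces4 genes, and the 3 members that fell were all Ces1 genes. Ces1d (chr8:95689971-95721703), also called triacylglycerol hydrolase for its part in mobilising stored lipid, was at 960, 838 and 793 CPM in Vehicle and 515, 489 and 489 CPM in FGF19 libraries. The 3 FGF19 libraries lay close together and far below the Vehicle libraries. It fell by 0.80 ± 0.10 on the log2 scale, which is 42.4% lower, with an adjusted p of 0.0016, and passed in each of the 13 other fits.

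Ces1f (chr8:95780135-95803635) was at 430, 291 and 337 CPM in Vehicle and 237, 244 and 195 CPM in FGF19 libraries. Ces1g (chr8:95826268-95861108), which hydrolyses triglyceride and cholesteryl ester, was at 150, 111 and 121 against 85.8, 86.8 and 78.7 CPM. In both genes Vehicle replicate 1 was the highest library and the groups did not overlap. They fell by 0.65 ± 0.15 and 0.60 ± 0.12 on the log2 scale, with adjusted p-values of 0.0297 and 0.0153. The adjusted p of Ces1f reached 0.094 and that of Ces1g 0.054 when a library was left out, with 4 and 3 of the 6 calls lost.

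The 3 other measured Ces1 genes had log2 fold changes below 0 without passing in the reported edgeR test. DESeq2 and the likelihood ratio test called Ces1b and Ces1e, which were called in 3 and 5 of the 13 other fits. Ces1e was at 195, 121 and 145 CPM in Vehicle and 111, 101 and 86.0 CPM in FGF19 libraries, with a log2 fold change of -0.63 ± 0.17 and an adjusted p of 0.0520. Its groups did not overlap. Ces1c, an esterase secreted into plasma, had the highest level per length of all 48 members, at 1372 RPKM in Vehicle and 1133 RPKM in FGF19 libraries, with a log2 fold change of -0.28 ± 0.10 (adjusted p = 0.13). Ces1b had a log2 fold change of -0.43. The ratio of Ces1d to Ces1c counts, chosen after the values were seen, was 0.351, 0.351 and 0.325 in Vehicle and 0.263, 0.223 and 0.233 in FGF19 libraries, without overlap (exact two-sided permutation p = 0.1, the smallest possible, and 0.12 after adjustment over the 6 ratios).

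The promoter of Ces1g is shown as an example of the Ces1 genes that fell. It is from RefSeq (GRCm38.p6) at chr8:93337160-93337459 on the minus strand, and capitals mark the letters TATAAA read on the opposite strand, from position -26.
Ces1g: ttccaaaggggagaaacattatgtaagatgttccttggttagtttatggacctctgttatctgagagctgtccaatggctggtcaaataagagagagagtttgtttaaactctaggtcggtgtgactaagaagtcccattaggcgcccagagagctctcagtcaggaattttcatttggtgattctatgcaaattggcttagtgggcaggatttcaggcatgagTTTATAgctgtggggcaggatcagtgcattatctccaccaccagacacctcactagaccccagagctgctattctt
TATAAA is found on either strand in 13.6% of the 32851 promoters, and no match to AGGTCA, TTCNNNGAA or GTTAAT was found in the run. Over the 45 promoters of the 40 members that matched the table, AGGTCA was found in 22.2%, TTCNNNGAA in 11.1%, TATAAA in 17.8% and GTTAAT in 6.67%, beside 16.3%, 8.3%, 13.6% and 7.1% of all promoters.

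The block from Ces2 to Ces4 gave no call in edgeR's test on the 6 libraries, and each of its 7 measured members overlapped between groups. Of the 7, 1 had an unadjusted p under 0.05, Ces3b, which was called lower by DESeq2 and by edgeR when FGF19 replicate 3 was omitted. The Ces2 genes, among them the intestinal-type esterases, had log2 fold changes of -0.11 for Ces2a, -0.25 for Ces2e, 0.13 for Ces2g and 0.27 for Ces2c, and their median was 0.01 where that of the 6 Ces1 genes was -0.61. Reads of Ces2c are uncertain, since 26.8% of its 100-base windows occur elsewhere. Ces3a, another lipid hydrolase, was at 795 RPKM in Vehicle and 680 RPKM in FGF19 libraries, with a log2 fold change of -0.23. Ces3b had a log2 fold change of -0.52 ± 0.18 (adjusted p = 0.12), with 334, 502 and 354 CPM in Vehicle and 254, 236 and 341 CPM in FGF19 libraries, and Ces4a one of -0.18.

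Aldehyde dehydrogenases were the largest family, and 3 of its 15 measured members changed. Aldh1a1 (chr19:20676472-20717952), which makes retinoic acid from retinaldehyde, was at 1437, 1148 and 1036 CPM in Vehicle and 785, 849 and 761 CPM in FGF19 libraries. The groups did not overlap, and Vehicle replicate 1 was the highest library. It fell by 0.60 ± 0.13 on the log2 scale (adjusted p = 0.0215), with the call lost for 3 of the 6 libraries left out, where the adjusted p reached 0.088. Its neighbour Aldh1a7 was at 155, 96.6 and 105 CPM in Vehicle and 108, 99.6 and 92.1 CPM in FGF19 libraries, which overlap (log2 fold change -0.25 ± 0.16, adjusted p = 0.41). The ratio of Aldh1a1 to Aldh1a7 counts, chosen after the values were seen, was 9.25, 11.9 and 9.88 in Vehicle and 7.27, 8.52 and 8.26 in FGF19 libraries, without overlap (exact two-sided permutation p = 0.1, the smallest possible, and 0.12 after adjustment over the 6 ratios).

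Aldh5a1 (chr13:24999448-25029530), succinate semialdehyde dehydrogenase of GABA breakdown, was at 87.8, 74.3 and 84.2 CPM in Vehicle and 64.8, 62.0 and 56.7 CPM in FGF19 libraries. It fell by 0.43 ± 0.10 on the log2 scale (adjusted p = 0.0286), without overlap. In the annotation 10.04% of its exon bases are shared with the gene 4932702P03Rik, and reads over both were left out of the counts. Aldh3b1 (chr19:3913491-3929716), which oxidises aldehydes from lipid peroxidation, was the 1 member that rose. It had 39, 49 and 37 counts in Vehicle and 86, 80 and 94 counts in FGF19 libraries, or 1.86, 2.6 and 1.84 against 4.0, 3.68 and 4.26 CPM. The FGF19 libraries were all above the Vehicle libraries, and the level was 1.90 times as high (log2 fold change 0.93 ± 0.20, adjusted p = 0.0235). At 2.17 RPKM after FGF19 it remained a low transcript of liver. Both calls were lost for 4 of the 6 libraries left out, with adjusted p-values up to 0.13 for Aldh5a1 and 0.11 for Aldh3b1.

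The promoter of Aldh3b1 is shown as that of the 1 member that rose. It is from RefSeq (GRCm38.p6) at chr19:3929729-3930028 on the minus strand, and capitals mark AGGTCA, read on the opposite strand from position -164 and on the gene's strand from position -39.
Aldh3b1: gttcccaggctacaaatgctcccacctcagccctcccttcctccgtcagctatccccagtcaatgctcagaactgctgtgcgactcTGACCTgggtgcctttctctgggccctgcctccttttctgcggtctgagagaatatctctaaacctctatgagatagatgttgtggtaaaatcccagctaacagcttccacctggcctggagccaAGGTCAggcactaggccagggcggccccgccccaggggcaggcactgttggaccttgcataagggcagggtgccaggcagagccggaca
The transcript start used here lies 62 bases upstream of the start of the gene in the count files.

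**Figure D4:**
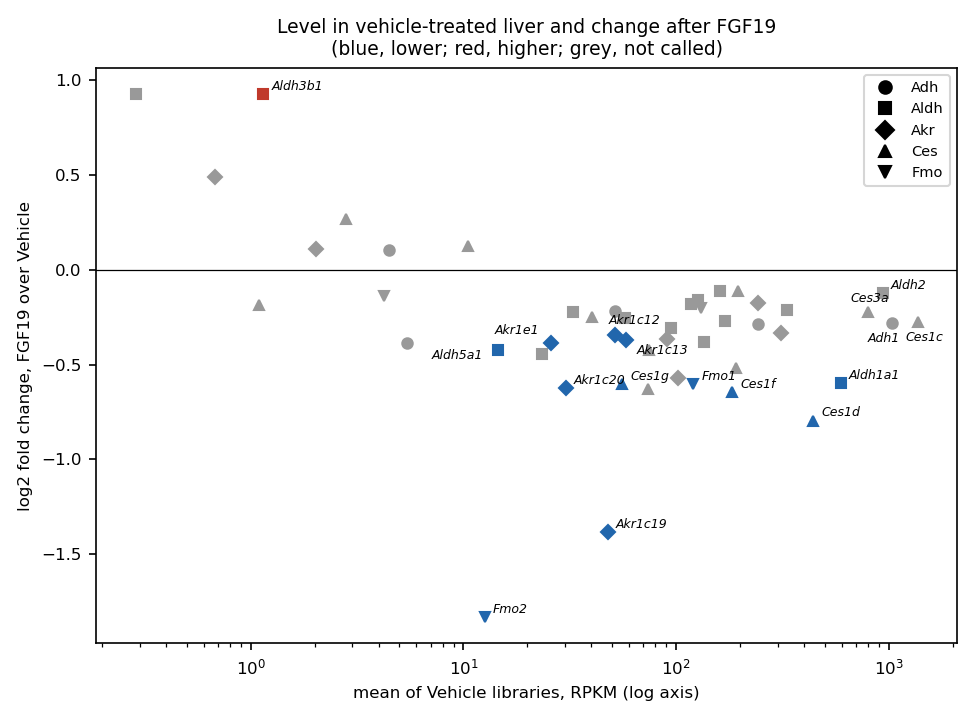
Log2 fold change (FGF19 over Vehicle, y axis) of the 48 members against their mean level in Vehicle libraries per exon length (RPKM, log axis), with 1 symbol per family and called members in colour. Called members span 1.14 RPKM (Aldh3b1) to 594 RPKM (Aldh1a1), and the 4 members with the highest levels, Ces1c, Adh1, Aldh2 and Ces3a, have log2 fold changes between -0.28 and -0.13 and were not called.

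The other aldehyde dehydrogenases did not pass in the reported edgeR test, and DESeq2 called Aldh1b1 and Aldh4a1 of them. Aldh1b1 was called in 5 of the 13 other fits. Without FGF19 replicate 3, edgeR called Aldh1b1, Aldh16a1, Aldh1l1 and Aldh7a1 lower, in the fit where 7.3% of all genes tested fell. Aldh2, the mitochondrial enzyme that clears acetaldehyde and the family's highest transcript per length, was at 937 RPKM in Vehicle and 859 RPKM in FGF19 libraries, with overlapping groups and a log2 fold change of -0.13 ± 0.09 (adjusted p = 0.48). Aldh18a1, which makes the precursor of proline, had the same log2 fold change as Aldh3b1, 0.93, but with a standard error of 0.34 and an adjusted p of 0.14, from 10, 23 and 27 counts in Vehicle and 46, 42 and 37 counts in FGF19 libraries. Aldh1b1, another mitochondrial form, and Aldh4a1, which breaks down proline, had an unadjusted p under 0.01 without passing, with log2 fold changes of -0.44 and -0.31 and adjusted p-values of 0.061 and 0.075. Both were apart between groups.

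The log2 fold changes of the remaining 7 members of the family were below 0. They were -0.38 for Aldh3a2, the fatty aldehyde dehydrogenase, -0.27 for Aldh7a1 of lysine breakdown, -0.22 for Aldh16a1, -0.21 for Aldh1l1 of folate metabolism, -0.18 for Aldh9a1 of carnitine synthesis, -0.16 for Aldh6a1 of valine breakdown and -0.11 for Aldh8a1.

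Alcohol dehydrogenases gave no call in edgeR's quasi-likelihood test on the 6 libraries, although 4 of the 5 measured members had log2 fold changes below 0. Without FGF19 replicate 3 it called Adh5 (adjusted p = 0.0159) and Adh6-ps1 (adjusted p = 0.0407) lower, in the fit where 7.3% of all genes tested fell. Adh1, the class I enzyme that oxidises ethanol and retinol, was the family's highest transcript per length at 1042 RPKM in Vehicle and 858 RPKM in FGF19 libraries. Its libraries were at 1555, 1224 and 1390 CPM in Vehicle and 1189, 1136 and 1107 CPM in FGF19, which do not overlap (log2 fold change -0.28 ± 0.11, adjusted p = 0.15). Adh5, which oxidises the glutathione adduct of formaldehyde, was at 374, 359 and 389 against 296, 284 and 341 CPM, also without overlap (log2 fold change -0.29 ± 0.10, adjusted p = 0.11). The pseudogene Adh6-ps1 had the largest difference of the family, with a log2 fold change of -0.39 ± 0.14 (adjusted p = 0.12). Adh4 gave -0.22 and Adh7, which is known mainly from the stomach, gave 0.11, both with overlapping groups.

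Members under 1 CPM were counted and not described further. They are Adh6a, Akr1b3, Akr1b7, Akr1c18, Akr1c21, Akr1cl, Aldh1a2, Aldh1a3, Aldh1l2, Aldh3a1, Aldh3b2, Ces1a, Ces2b, Ces2d-ps, Ces2f, Ces5a, Fmo6 and Fmo9. Of these 18, Akr1b3, Akr1cl, Aldh3a1, Ces2f, Ces5a and Fmo9 had 0 counts in all 6 libraries. The 0 of Akr1b3 is uncertain, because 96.4% of its exon bases overlap Gm6644 in the annotation and 73.1% of its 100-base windows occur elsewhere. Just above the limit was Akr1b10 at 1.08 CPM over the 6 libraries, and just below it Akr1b7 at 0.515 and Aldh1a3 at 0.469 CPM, both of which were tested and not called.

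Genes that act with these families were taken from 4 lists made by function. Of 25 genes of retinoid metabolism and signalling, 22 were tested. Rdh16, a retinol dehydrogenase, fell from 133, 93.1 and 116 CPM to 76.5, 75.2 and 71.0 CPM (log2 fold change -0.62, adjusted p = 0.0179), and Cyp26b1, which breaks down retinoic acid, rose from 5.19, 6.57 and 3.87 CPM to 29.5, 21.7 and 29.5 CPM (log2 fold change 2.37, adjusted p = 0.00023). The libraries of both genes were apart between groups. These were the 2 calls of the list, against 2.84% of all genes tested that fell and 4.56% that rose, and its median was -0.06.

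Other oxidoreductases and hydrolases of drug metabolism gave 1 call among 26 tested, xanthine dehydrogenase Xdh, which rose (log2 fold change 0.85, adjusted p = 0.00039), where 4.56% of all genes tested rose and 2.84% fell. By edgeR's quasi-likelihood test none of the 26 fell after adjustment, but 23 had log2 fold changes below 0 and 8 were lower at an unadjusted p under 0.01, against 50.1% and 4.98% of all genes tested. Of the 4063 genes with a mean of at least 30 CPM, 2462 were below 0 and 382 were lower at an unadjusted p under 0.01. At an unadjusted p under 0.05, 16 of the 26 were lower, but the share of all genes tested at that threshold was not counted. DESeq2 called 8 of the 26, Xdh, Por and Bche among them, where it called 519 of the 12559 genes lower and 642 higher. In 14 of the 26 every FGF19 library was below every Vehicle library, against 13.8% of all genes tested and 935 of the 4063 genes. The median of the list, -0.28, equalled that of the 48 members. Por, the electron donor of cytochrome P450, and the esterase Bche had adjusted p-values of 0.0520 each, with log2 fold changes of -0.55 and -0.52. Of 23 other dehydrogenases and reductases of small substrates, 6 fell and 1 rose, against the same 2.84% and 4.56% of all genes tested, with a median of -0.31. Those that fell were Hpgd (-1.15), Hsd3b3 (-1.06), Hsd3b2 (-0.81), Dhdh (-0.60), Cryl1 (-0.56) and Sord (-0.48), and the 1 that rose was lactate dehydrogenase Ldha (1.23). Of 13 regulators known from textbooks to act on genes of these families, which are transcription factors and Keap1, a partner of 1 of them, Ahr (-1.42), the constitutive androstane receptor Nr1i3 (-0.64) and the bile acid receptor Nr1h4 (-0.61) fell, and its target Nr0b2 (1.38) rose, all in log2 fold change at adjusted p-values up to 0.0381. Of all genes tested, 2.84% fell and 4.56% rose, and the median of the 13 was -0.19. With Esrra (-0.43), 4 of the 13 were lower at an unadjusted p under 0.01, against 4.98% of all genes tested. In 6 of the 13 every FGF19 library was below every Vehicle library and in 1 above, against 13.8% and 14.5% of all genes tested. Whether the regulators act on the members was not tested.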

How the data were processed

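RNA-seq libraries of mouse liver (3 Vehicle, 3 FGF19, grouped by their titles) were analysed. Per the labels, the paper's methods and the file headers, the authors trimmed reads with Trimmomatic 0.36, aligned them to mm9 by STAR, and used featureCounts 1.5.2 to count exonic reads. The submitters' processing notes give STAR 2.5.3a, and the paper's methods and reporting summary name other versions. The deposited counts are raw read counts per gene, without strand, with mates counted separately, and without multi-mapped reads or reads over exons of several genes. A deposited table of the authors' own comparison (log2 fold changes, log2 CPM, p-values) was not used.

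Counts were filtered with filterByExpr of edgeR 4.0.16 in R 4.3.3 (defaults), scaled by TMM (factors 0.964 to 1.03) and compared by the quasi-likelihood test of edgeR with no covariates and Benjamini-Hochberg adjustment over 12559 genes. The threshold was an adjusted p of 0.05, and standard errors were derived from the F statistic. The common dispersion was 0.0163. CPM are counts scaled to the TMM-adjusted library size, and RPKM divide them by the merged exon length. The methods describe 3 mice per group, and the labels do not tie a library to a mouse. Two-sided exact permutation tests were used for ratios of members. Limits for 0 counts cover counting error only, while the SDs and standard errors also include the spread between libraries. Windows of 100 bases were searched in the mm9 genome, and promoters came from RefSeq (GRCm38.p6), which held 40 of the 48 members and 9 of the 13 called.

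Called members are given with values in every library, with the highest member per length and the largest change that did not pass in each family. A gene that the symbols match is not reported here. The 6 ratios were chosen after the values were seen. The members and gene lists were chosen with earlier results of these data known. Alternatives were DESeq2 1.42.0, limma-voom (limma 3.58.1), edgeR's likelihood ratio test, no TMM scaling, no filter, at least 1 CPM in every library, a replicate block, other thresholds and each library left out.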

Additional observations from a re-analysis of the deposited data

How the results depend on the processing

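The count of members that fell was 12 in the reported test, 19 with DESeq2, 4 at an adjusted p under 0.01, and between 12 and 16 with limma-voom, the likelihood ratio test, no TMM scaling, no filter, at least 1 CPM in every library or an unadjusted p under 0.01. With 1 library left out it ran from 5 to 22: 5 without Vehicle replicate 1, Vehicle replicate 3, FGF19 replicate 1 or FGF19 replicate 2, 10 without Vehicle replicate 2 and 22 without FGF19 replicate 3. Over all genes tested, 357 fell in the reported test, 91 to 168 in the fits that gave 5 members and 926 without FGF19 replicate 3. The cause was not tested. The count that rose was 1, with 0 at an adjusted p under 0.01 and 0 to 1 with a library left out. Fmo2, Fmo1, Ces1d and Akr1c19 were called in all 13 other fits at an adjusted p under 0.05, and the same 4 are the members called at 0.01. No called member changed sign in any of these fits, while Adh7 and Ces4a, which were not called, did in 1 and 2 fits. With the replicate number as a block, 9 members fell and 0 rose, 8 of them called in the reported test, and the count of all genes that fell went from 357 to 164 and of those that rose from 573 to 370. The labels do not say whether the numbers pair the samples. Correlations of same-numbered libraries, as deviations from their group mean, were -0.031, -0.18 and -0.18. Those of differently numbered libraries ran from -0.13 to 0.23. With 3 libraries per group, such correlations cannot exclude a pairing. The called member with the lowest counts was Aldh3b1, with 37 to 94 per library, and calls were lost with a library left out for Aldh3b1 (4 of 6) and also for Akr1c12 (5 of 6), which had 1027 to 1412 counts.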
